A study of Mus musculus with 4 samples.

Results

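The 10 genes described here are the stress transcription factor Atf4, its partners Ddit3 and Trib3, and 7 metabolic enzymes. These enzymes make or use asparagine, serine, glycine, proline and folate-bound carbon units. They were 10 of 16862 named genes usable on all 4 arrays, read by 14 of 41171 non-control probes, with every probe of each gene used. The set was chosen with results of these data known, because Aldh1l2 and Aldh18a1 were higher in treated back skin. Values of treated against control back are therefore a description throughout.

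Mouse skin was profiled 48 h after a photodynamic treatment, in which a cream of methyl aminolevulinate and red light produce a burst of reactive oxygen species. Treated tail skin received the cream, 2.5 h of darkness and 10 J/cm2 of 636 nm light, and control tail skin had no treatment. Treated back skin was shaved and given the same cream, dark period and wavelength at 2.5 J/cm2, and control back skin had no treatment, with no statement on whether it was shaved. The light dose thus differed between the skins. The labels say tail skin, but the extraction protocol speaks of epidermis for the tail, so the tissue taken may differ too. The study design names 3 animals per group, but each group was read on 1 array, and whether RNA was pooled, and the strain, age and sex of the mice, are not given in the sources used here. With 1 array per group there is no replicate check, no test was possible, and every value compares single arrays.

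ATF4 is made when kinases of the integrated stress response phosphorylate the translation initiation factor eIF2alpha, which slows most protein synthesis but favours translation of Atf4 mRNA. The protein then switches on genes of amino acid supply, among them Asns, Phgdh, Psat1, Shmt2, Mthfd2, Aldh1l2 and Aldh18a1, together with Ddit3, which encodes the factor CHOP, and the pseudokinase gene Trib3. Because ATF4 is controlled largely at translation, the level of Atf4 mRNA need not follow its activity. In skin these enzymes supply amino acids, nucleotides and reducing power to growing keratinocytes and to other cells.

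ATF4 binds with C/EBP partners at composite elements that contain TGATGNAA. This motif of 8 letters was searched on both strands in the RefSeq promoter windows of build GRCm38.p6, which run from 250 bases before to 50 bases after each start. Windows were held for 9 of the 10 genes, 10 windows in all, and Aldh1l2 had none. A match was found in 2 genes, Asns and Trib3, while 3.97% of all 32851 windows held one. A match describes letters only. These windows, from chr6:7693160-7693459 and chr2:152344011-152344310, both on the minus strand, are shown because they are the members with the motif, which stands in capitals.
Asns: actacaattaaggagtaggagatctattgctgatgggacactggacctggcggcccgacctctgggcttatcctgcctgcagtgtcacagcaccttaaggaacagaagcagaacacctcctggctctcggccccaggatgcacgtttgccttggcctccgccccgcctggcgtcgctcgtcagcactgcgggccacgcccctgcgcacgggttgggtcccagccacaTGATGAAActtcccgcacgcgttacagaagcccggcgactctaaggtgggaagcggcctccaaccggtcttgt
Trib3: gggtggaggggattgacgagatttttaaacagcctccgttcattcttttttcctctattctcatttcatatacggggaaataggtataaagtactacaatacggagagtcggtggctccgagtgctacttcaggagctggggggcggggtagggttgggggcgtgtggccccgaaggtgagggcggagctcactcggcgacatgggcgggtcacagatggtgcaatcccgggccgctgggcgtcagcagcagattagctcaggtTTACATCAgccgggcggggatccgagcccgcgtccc
In Asns the match TGATGAAA began 23 bases before the start. In Trib3 it lay on the opposite strand, as TTACATCA, 14 bases past the start.

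Levels are log2 of the processed signal relative to the 75th percentile of the same array, so 0 is that percentile. This percentile was a signal of 909 on the treated tail array, 7261 on the control tail array, 1204 on the treated back array and 1860 on the control back array. All 14 probes were well above background on all 4 arrays. Saturation was most frequent on the bright control tail array. Asns and 2 of 3 Phgdh probes were saturated there, and Psat1 reached 99.8% of the scanner's ceiling without being marked. Of the 16862 named genes 1668 were saturated on control tail, 330 on treated tail, 666 on control back and 334 on treated back. A gene saturated only in control tail could be called lower in treated tail but not higher, which also shapes the tail shares of all genes. A difference of at least 2-fold, 1 on the log2 scale, is called higher or lower. The scanner's own error of a member's difference had a median of 0.20, which covers spots and not animals.

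In treated back skin 9 of the 10 genes were higher than in control back skin by at least 2-fold, none was lower, and Atf4 itself was within 2-fold. The median difference was 1.58, with members between -0.45 and 2.75. Over all 13460 genes with a value, 13.6% were called higher and 12.6% lower, with a median of -0.01. Nothing is read from that contrast of counts, since the set was picked on this comparison. In treated tail skin the same genes did not form such a pattern. Of 8 with a value none was higher, 1 was lower, and the median was -0.16, against 27.2% of 12858 genes higher, 6.55% lower and a median of 0.33.

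**Figure D1:**
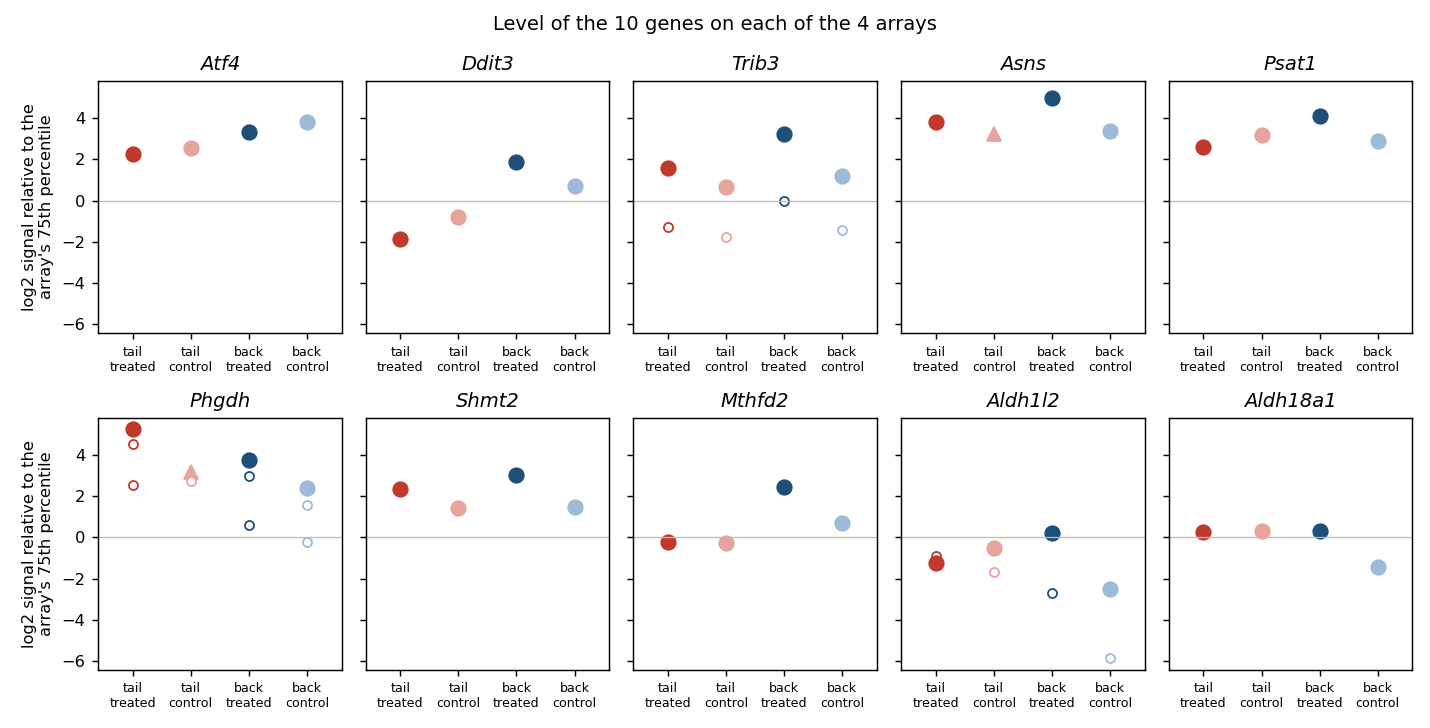
Log2 level of each of the 10 genes (y axis, relative to the array's 75th percentile) on the 4 arrays (x axis); large filled marks are the brightest probe, small open marks other probes, triangles saturated spots. In treated back 9 of the 10 brightest probes lie above control back, while Atf4 lies below it.

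The regulators came apart. Atf4 had levels of 2.28 in treated tail and 2.55 in control tail, and of 3.36 in treated back and 3.81 in control back. Its differences of -0.27 in the tail and -0.45 in the back were within 2-fold. Both back arrays stood above both tail arrays for Atf4, by 1.26 between the untreated and 1.07 between the treated skins. The first was under 2-fold with quantile normalization, cyclic loess and spike-in scaling, at 0.75, 0.52 and 0.33. The Atf4 difference in the tail was -1.05 after cyclic loess and -2.19 with spike-in scaling, past 2-fold.

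Ddit3 had levels of -1.87 in treated tail and -0.77 in control tail, and of 1.87 in treated back and 0.70 in control back. CHOP, its product, is best known for promoting cell death under prolonged stress. Ddit3 was thus 2.25-fold higher in treated back (log2 1.17) and 2.15-fold lower in treated tail (log2 -1.11). The tail difference was 0.0073 with normexp background correction, and the lower call was lost there. Between the treated skins Ddit3 was 13.4-fold higher in back. Between the untreated skins it was 2.77-fold higher in back (log2 1.47), but under 2-fold higher with spike-in scaling (log2 0.54).

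Trib3, a pseudokinase that ATF4 and CHOP induce and that dampens ATF4 activity, had levels of 1.58 in treated tail and 0.68 in control tail. In the back its levels were 3.26 treated and 1.21 control, which is 4.14-fold higher (log2 2.05). Its dimmer probe moved the same way, by 1.41 in the back and 0.49 in the tail. The tail difference of the brighter probe, 0.91, was under 2-fold, and it was -1.01 with spike-in scaling.

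Asns makes asparagine from aspartate and glutamine. Its levels were 4.97 in treated back and 3.39 in control back, a difference of 1.58 or 2.99-fold. In treated tail it stood at 3.82, and in control tail it was saturated at 3.24. The tail difference can therefore be no higher than 0.57, and its direction is unknown.

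Phgdh and Psat1 catalyse the opening steps of serine synthesis from a glycolytic intermediate. The brightest Phgdh probe stood at 3.74 in treated back and 2.39 in control back, 2.56-fold higher. Its other probes differed by 1.39 and by 0.86, the last under 2-fold. In the tail only the dimmest Phgdh probe was unsaturated on both arrays, at 2.53 in treated and 2.73 in control tail, a difference of -0.21.

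Psat1 had levels of 4.10 in treated back and 2.88 in control back, 2.33-fold higher. In the tail it stood at 2.59 in treated and 3.20 in control skin, a difference of -0.61. The control tail spot lay next to the scanner's ceiling. The difference was -1.26 with normexp, -1.45 after cyclic loess and -2.45 after quantile normalization. Phgdh was the member that was lower in treated back than in treated tail, by 1.51 on the log2 scale for the brightest probe, and by 1.53 and 1.91 for the others (2.84-fold, 2.88-fold and 3.77-fold lower). The brightest probe was under 2-fold there with normexp, quantile normalization and spike-in scaling, at -0.82, -0.91 and -0.99.

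Shmt2 splits serine into glycine and a folate-bound carbon unit inside mitochondria. Its levels were 2.35 in treated tail and 1.43 in control tail, and 3.04 in treated back and 1.47 in control back. It was 2.97-fold higher in treated back, and its tail difference of 0.92 was close to the 2-fold line. The untreated skins differed by 0.03.

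Mthfd2 oxidises the folate-bound unit in the next mitochondrial step, and is known for high levels in embryonic and tumour tissue. In the back it stood at 2.43 in treated and 0.68 in control skin, 3.36-fold higher. In the tail it stood at -0.22 in treated and -0.29 in control skin, a difference of 0.07. Treated back was 6.27-fold above treated tail.

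Aldh1l2, the mitochondrial enzyme that burns 10-formyltetrahydrofolate to CO2 while making NADPH, had the largest back difference of the 10 genes. Its brighter probe stood at 0.23 in treated back and -2.52 in control back, 6.74-fold higher. The dimmer probe stood at -2.71 in treated back and -5.87 in control back, 8.90-fold higher. The control back signal of that dimmer probe was 31.9, against 20.1 for the dimmest probe detected on that array.

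The Aldh1l2 probes did not point the same way elsewhere. In the tail the brighter probe stood at -1.27 in treated and -0.51 in control skin, a difference of -0.75. The dimmer one stood at -0.91 in treated and -1.67 in control skin, a difference of 0.76. Between the treated skins, back minus tail, they differed by 1.50 and -1.80, so no tail direction is given for Aldh1l2. In untreated skins both probes were lower in back than in tail, by 4.03-fold and 18.3-fold.

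Aldh18a1 encodes the synthase that commits glutamate to proline and ornithine. Its level was 0.33 in treated back and -1.45 in control back, 3.43-fold higher. It stood at 0.27 in treated tail and 0.32 in control tail, a difference of -0.05. Under the percentile scaling control back was thus the low array, 3.41-fold under control tail, and treated back was level with the tail arrays. With spike-in scaling the Aldh18a1 difference was -1.97 in the tail and 1.30 in the back, so the tail arrays were not level there. Aldh1l2 and Aldh18a1, the genes the choice was made on, were both called lower in control back than in control tail, as were 2 of the 3 Phgdh probes. Among the genes as represented by their brightest probe, 2 were called lower there. In that pair 3 members were called lower with the mean of a gene's probes, 4 after cyclic loess and with spike-in scaling, and 5 after quantile normalization.

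**Figure D2:**
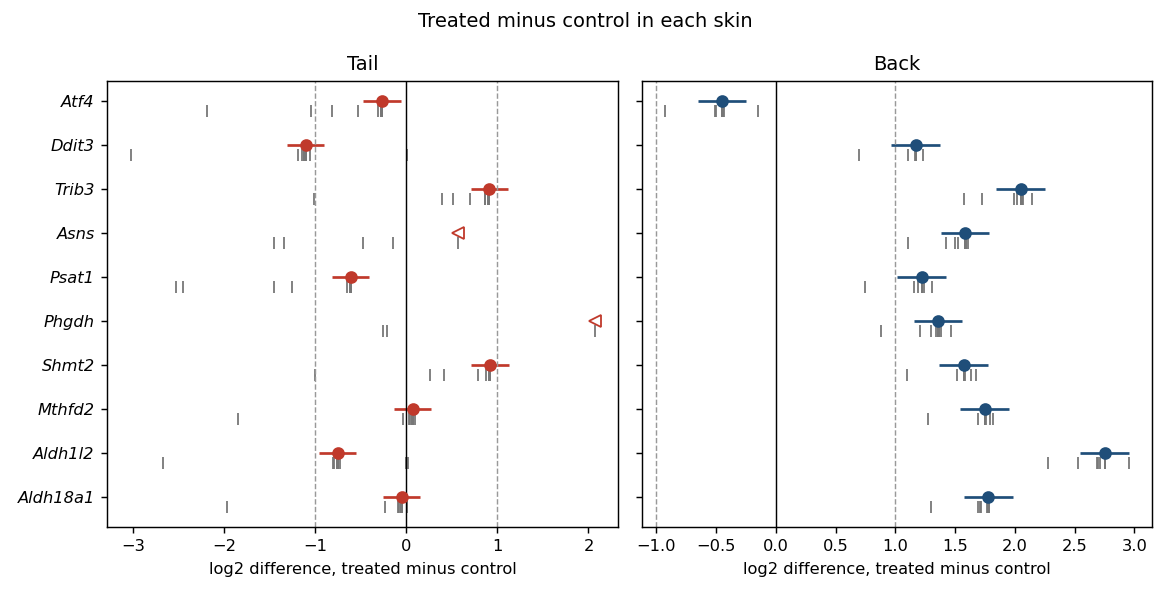
Log2 difference, treated minus control, of the brightest probe (x axis) for each gene (rows) in tail and in back; dots with bars show the value and the scanner's error, open triangles upper limits from saturated control spots, grey ticks 11 other processings, dashed lines 2-fold. In back all genes but Atf4 lie right of 0 under every processing, whereas tail values straddle 0.

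Between the untreated skins, back minus tail, Atf4 and Ddit3 were higher, Aldh1l2 and Aldh18a1 were lower, and 4 of the 9 genes with a value were within 2-fold. The remaining gene, Phgdh, was at least 1.74-fold lower by its brightest probe, which was saturated in control tail. Its other probes were at least 2.92-fold lower and, where unsaturated, 7.90-fold lower. Over all genes 27.4% were higher and 17.2% lower in this pair. Between the treated skins, back minus tail, 7 of 10 were higher and 1 lower, against 15.9% and 20.5% of all genes. Those pairs share arrays with the treated against control comparisons and add no separate evidence. Markers of other cells also differed between the skins. In treated back against treated tail, hair shaft and matrix markers were lower in 8 of 8 cases, with a median of at most -8.76. The hair keratin genes were saturated in treated tail, so their values are bounds. In the same pair melanocyte markers were lower in 3 of 3 (median -3.65) and macrophage markers higher in 6 of 6 (median 3.61). In control back against control tail, hair markers were lower in 7 of 8 and melanocyte markers in 3 of 3, and macrophage markers were higher in 5 of 5. Their part in the differences of the 10 genes was not tested. Since the extraction protocol speaks of epidermis for the tail, the layer taken cannot be told apart from the skin.

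The back difference minus the tail difference was at least 2-fold upwards in 6 of 8 genes with both values. Over all 12037 genes with both values 15.4% were past 2-fold upwards and 30.1% downwards. The back difference is the one the set was picked on, so these values are a description too, and nothing is read from that contrast of counts. Aldh1l2, by its brighter probe, stood at 3.51 and Ddit3 at 2.27. Shmt2 at 0.65 and Atf4 at -0.19 were under 2-fold. Shmt2 was past it with normexp, cyclic loess and spike-in scaling, at 1.38, 1.17 and 2.10. Atf4 was at 1.26 with spike-in scaling, and above 0 but under 2-fold with normexp, quantile normalization and cyclic loess.

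The direction in the back, on which the set was picked, stayed the same under every scaling of the same arrays. Under each of 11 other processings 9 of 10 members were above 0 and between 6 and 9 were called higher. Several of these processings cannot move most members, as set out below. With spike-in scaling Ddit3, Psat1 and Phgdh were under 2-fold, at 0.69, 0.74 and 0.88. Relative to the median of all genes the members' median lay 1.59 higher, and between 1.43 and 1.62 higher under the alternatives. The set was picked on this comparison and every processing reads the same arrays, so these back values are a description. In the tail, scaling moved the median of all genes between -1.48 with spike-in scaling and 0.62 with normexp. Relative to it the members' median was -0.49, and between -0.61 and -0.33 under the alternatives. With spike-in scaling 9 of 9 members with a value were lower in treated tail, where 1.18% of all genes were higher and 66.9% lower. After cyclic loess 14.2% of all genes were higher and 12.1% lower in the tail. Spike-in scaling also gave 6.37% of all genes higher and 25.5% lower in treated back. With the same scaling 9.78% were higher and 40.0% lower in back than in tail of untreated skin, and 27.6% higher and 10.95% lower in back than in tail of treated skin.

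**Figure D3:**
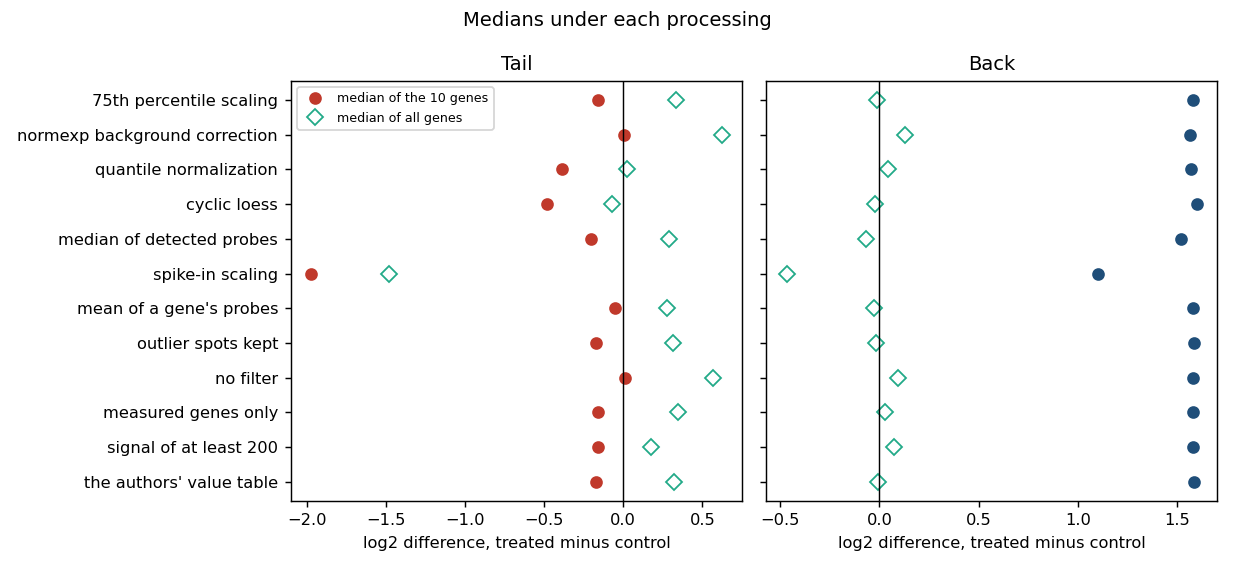
Median log2 difference, treated minus control (x axis), of the 10 genes (dots) and of all genes (diamonds) under 12 processings (rows) in tail and back. In back the dots stay between 1.10 and 1.60, and in the tail they lie left of the diamonds in every row.

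Other genes of the response were followed through 7 lists. Their counts stand against all genes, of which 13.6% were higher and 12.6% lower in treated back and 27.2% higher and 6.55% lower in treated tail. Tail directions in these lists rest on the scaling to the 75th percentile, since with spike-in scaling no gene of the 7 lists was called higher in treated tail. Among sensors and regulators of eIF2alpha none of 11 was higher in treated back and 1 was lower, and their median was -0.16. The lower one was Ppp1r15a, the phosphatase subunit that ends the response, which was at least 2.73-fold lower. In the tail none of 9 was higher and 2 were lower, namely the amino acid sensing kinase gene Eif2ak4 at -1.88 and the constitutive phosphatase subunit gene Ppp1r15b at -1.26. Eif2ak4 was at 0.82 there with normexp.

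Other ATF4 targets and partners included 8 of 22 that were higher in treated back and 2 that were lower, and their median was 0.56. The secreted hormone Stc2 was 88.0-fold higher, with a control back signal of 35.1 against 20.1 for the dimmest probe detected on that array. Also higher were the metabolic hormone Fgf21 18.2-fold, the cysteine-making lyase Cth 13.8-fold and the AP-1 repressor Jdp2 7.02-fold. Atf3, at -1.18, and the stress gene Sesn2, at -1.36, were the 2 lower ones and are named after their values were seen. In treated tail 6 of 19 passed 2-fold upwards and 3 downwards, against 27.2% and 6.55% of all genes. Of the lower ones, Slc38a2 and Atf3 were bounds from saturated control tail spots, which give a value only where it is lower. With measured genes only, 6 of 17 were higher and 1 lower, against 26.9% and 6.26% of all genes. Their median was 0.37, near the 0.33 of all genes. Stc2 at 2.50, Cth at 1.45 and the arginine transporter Slc7a1 at 1.34 were higher there. The Stc2 signal was 28.1 in treated and 39.8 in control tail, against 10.3 and 22.3 for the dimmest probes detected on those arrays. Its tail value lay between 0.58 and 5.15 under the alternatives. The neutral amino acid transporter Slc1a4 was at -1.34, Slc38a2 at least 2.11-fold lower and Atf3 at least 52.5-fold lower. Fgf21 was at 1.27 in the tail, a value named after it was seen. With spike-in scaling the tail values of Stc2, Cth and Fgf21 were 0.58, -0.47 and -0.65.

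Of the other serine, glycine and folate genes, 8 of 24 were higher in treated back and 4 were lower, and their median was 0.57. The mitochondrial formate-releasing enzyme Mthfd1l was 12.2-fold higher, the polyglutamate synthase Fpgs 5.28-fold and thymidylate synthase Tyms 3.19-fold. The glycine decarboxylase Gldc was at -1.94, and the hydrolase Ggh, which removes the glutamate tails that Fpgs adds, was at least 2.08-fold lower. In treated tail 6 of 24 passed 2-fold upwards, a share near the 27.2% of all genes, and 4 downwards. Their median was 0.28, near the 0.33 of all genes. The folate receptors Folr1 and Folr2 were at 2.22 and 1.86, the last serine synthesis enzyme Psph at 1.46 and the histidine-linked folate enzyme Ftcd at -1.86. The Psph spot in control tail was not marked saturated. Its signal of 62199 was as bright as saturated spots there, such as Eif2b2 at 62205, so 1.46 may be an upper limit. The Psph tail value fell below 2-fold under 3 of 11 alternatives and changed sign under 1. The Folr2 signal in treated tail was 12.5, against 10.3 for the dimmest probe detected on that array. Aldh1l1, the cytosolic counterpart of Aldh1l2, was at 1.08 in the tail and 1.13 in the back, and is named after its values were seen.

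Of 20 cytosolic aminoacyl-tRNA synthetase genes, which charge tRNAs with amino acids, 3 were higher and 1 lower in treated back (Wars at 1.70, Aars at 1.58, Iars at 1.47 and Rars at -1.10), and all 16 with a value in the tail were within 2-fold. Of proline, arginine and glutamate enzymes 2 of 13 were higher and 2 lower in the back. Ass1, which makes the arginine precursor argininosuccinate, was at 2.12, glutamate dehydrogenase Glud1 at 1.05, and the arginases Arg2 and Arg1 at -1.86 and -1.32. In the tail 1 of 13 was higher, Arg1 at 1.30, and 1 lower, the ornithine aminotransferase Oat at -1.45.

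Endoplasmic reticulum chaperones and genes of the ATF6 and XBP1 arms included 2 of 15 with a value that were higher in treated back and 1 that was lower. These were Pdia4 at 1.55, Sdf2l1 at 1.23 and Dnajb9 at -1.49. Of the 20 on the array, the chaperone genes Hspa5, Hsp90b1, Hyou1, Pdia6 and Canx had no value in either skin because of saturation, so their change is unknown. Herpud1, Syvn1 and Sec61b had none in the tail. In the tail 1 of 12 was higher, the XBP1-activating sensor Ern1 at 1.32, and 1 lower, Dnajb9 at -1.57. Of mitochondrial stress genes 2 of 9 were higher in the back, the proteases Lonp1 at 1.24 and Clpp at 1.01, and 1 of 6 in the tail, Clpp at 1.26.

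**Figure D4:**
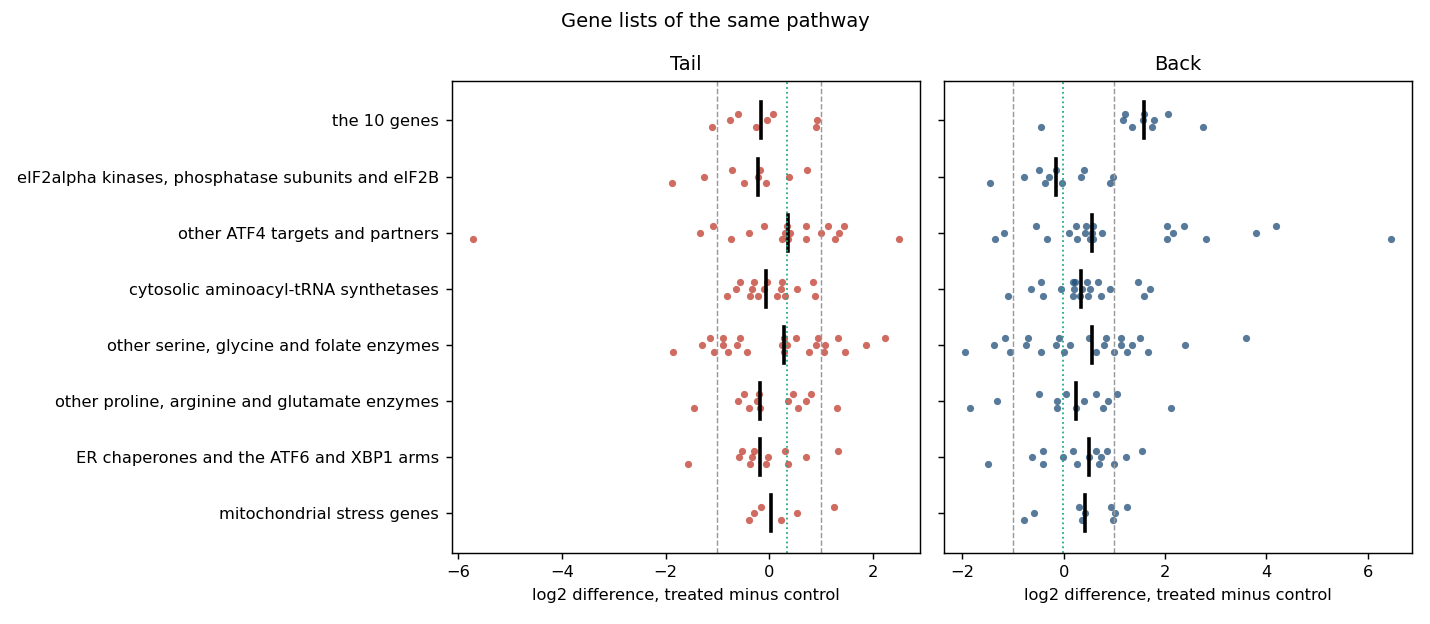
Log2 difference, treated minus control (x axis), of every gene with a value in the 10 genes and in 7 lists (rows), in tail and back; black bars are list medians, the dotted line the median of all genes, dashed lines 2-fold. In back the bar of the 10 genes lies at 1.58 and those of the lists between -0.16 and 0.57. The 10 genes were picked on the back comparison, so nothing is read from this gap.

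Other cells and states differed on the same arrays, and in bulk skin fewer cells of a type and less RNA per cell cannot be told apart. Keratinocyte markers were above background on every array, 7 of 7 basal and 6 of 6 suprabasal genes. Because of saturation 3 basal and 3 suprabasal genes gave a value in the back, with 2 of the basal ones higher and all 3 suprabasal ones lower in treated skin. Markers of proliferating cells were higher in treated back in 5 of 5 cases, with a summed signal of 9.21 times the 75th percentile in treated back and 2.48 in control back. In the tail 5 of 5 were within 2-fold, with sums of 4.75 in treated and 4.43 in control tail. Without Plk1, the brightest of them, the sums were 1.56 in treated and 2.20 in control tail, and 5.41 in treated and 1.52 in control back. Macrophage markers were higher in treated back in 4 of 6 cases, with sums of 8.49 in treated and 2.77 in control back. Of these, 6 of 6 were above background in treated back and 5 of 6 in control back. Neutrophil markers were higher in 3 of 5, with sums of 109 in treated and 42.7 in control back that include S100a9, saturated on both arrays, and S100a8, saturated in treated back. Fibroblast markers were higher in 4 of 7 and lower in 1, with sums of 21.4 in treated and 7.30 in control back. Without Fbln1, the brightest of them, the sums were 2.12 in treated and 2.50 in control back. T cell markers were lower in 3 of 4, with sums of 0.29 in treated and 3.31 in control back, and of 0.19 in treated and 0.45 in control back without Cd4. Hair shaft and matrix markers were lower in 6 of 8, with sums of 1.29 in treated and 10.4 in control back. The part of these cells in the values of the 10 genes was not tested.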

How the data were processed

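Total RNA of mouse skin, 200 ng per sample and labelled with Cy3, was hybridised to 4 Agilent arrays, 1 per group, per the labels' protocols. The extraction protocol speaks of epidermis for the tail. The deposited values are spot intensities from which Feature Extraction 10.5.1.1 had removed background, without scaling arrays to each other, per the file headers. Version 10.7 is named in the submitters' processing notes. The deposited table of the authors' log2 values has no stated making. Its tail, back and between-skin differences equalled those of the spot signals, up to a constant and within 0.001, for 99.7% of probes, and each probe was centred on its median. Its column medians were 0.10 in treated tail, -0.28 in control tail, 0.08 in treated back and -0.03 in control back.

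Outlier spots were left out, repeated spots averaged, and log2 signals scaled to the 75th percentile. Through RefSeq accessions of GRCm38.p6, 24375 probes (59.2%) matched 1 symbol, and the brightest probe represented a gene. A dim spot was raised to the dimmest detected signal of its array where it lay under it, which gave a bound, as did saturated spots. Genes whose bound had no direction had no value. The file headers name build mm8, so coordinates are given for RefSeq promoters only. The position of an array on the slide cannot be told apart from its group. Tools were Python 3.11.15 and R 4.3.3 with limma 3.58.1 (normexp with an offset of 50, quantile, cyclic loess).

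The 10 genes, the lists and the 11 alternatives were chosen with earlier results of these data known. From each list, up to 4 genes by size among measured genes past 2-fold are named per skin, plus those called only as a bound. Of 130 list entries 124 were on the array. The number of arrays limits the precision.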

Additional observations from a re-analysis of the deposited data

Results flagged for a closer look

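Ddit3 moved in opposite directions in the skins, by 1.17 in treated against control back and by -1.11 in treated against control tail. The back response exceeded the tail response by 2.27 on the log2 scale. The set was picked on the back comparison. This difference was not tested, since each group has 1 array, and the light dose also differed. With normexp background correction the tail value was 0.0073, so the opposite directions did not hold under that correction. The processed signal was 248 in treated tail and 4266 in control tail.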

How the results depend on the processing

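No paired analysis was possible because each group had 1 array, and for the same reason no replicate could be left out. Of 493 values of single genes under the alternatives, 455 kept their direction and side of the 2-fold line or stayed within it, 12 fell below 2-fold, 20 passed it, 4 passed it on the opposite side and 2 called values changed sign. The last were Ddit3 in the tail with normexp, at 0.0073, and Aldh1l2 between treated skins with the mean of a gene's probes, at -0.15. Averaging probes, no filter, measured genes only and a signal minimum cannot move a bright, unsaturated gene with 1 probe. Agreement in such cases was fixed in advance and is no check, for members and list genes alike. The authors' value table repeats the spot signals with constants of 2.987 in tail and 0.634 in back. The 75th percentile scaling has 2.998 and 0.628, so agreement of that table is no check either. Keeping outlier spots gave nearly the same member values, such as -0.28 against -0.27 for Atf4 in the tail. All of these stay in the counts given here. Of 426 values of named list genes, 394 stayed past 2-fold, 24 fell below it and 8 changed sign, all in the tail. These were Eif2ak4 with normexp, at 0.82, and, with spike-in scaling, Arg1 at -0.62, Clpp at -0.66, Cth at -0.47, Ern1 at -0.60, Folr2 at -0.059, Psph at -0.46 and Slc7a1 at -0.58. In the tail, no filter gave 1 member higher, Phgdh at 2.07. This is an upper limit only, since its brightest probe was saturated in control tail. Quantile normalization and cyclic loess each gave 3 lower, with medians of -0.39 and -0.48, and spike-in scaling gave 9 lower with a median of -1.97. In the back the median was 1.10 with spike-in scaling. Between untreated skins quantile normalization gave 1 higher and 5 lower, cyclic loess 1 higher and 4 lower, and spike-in scaling 0 higher and 4 lower. Between treated skins 0 were lower with normexp, quantile normalization and spike-in scaling. There the median was 1.60 with normexp, 1.84 with spike-in scaling and 1.11 with the mean of a gene's probes. Alternatives for treated skins, response differences and lists were added after the data were seen. Saturated or near-ceiling spots on the control tail array limit Asns, Phgdh and Psat1 among the members, and Psph and others among the list genes. The cause of these changes was not tested.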

Other observations

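The genes nearest to Aldh1l2 over the 4 arrays, by root mean square distance of centred log2 levels among 11280 genes measured on all arrays, were the RAS effector Rin1 at 0.11, the cell cycle factor E2f1 at 0.24 and methionine synthase Mtr at 0.25. Rin1 differed by -0.75 in the tail and 2.58 in the back. Those nearest to Aldh18a1 were the lysosomal phosphatase Acp2 at 0.04, the transcription factor Klf13 at 0.05 and the deaminase Dctd at 0.05. Aldh1l2 and Aldh18a1 lay 0.52 apart. With 4 arrays such distances describe these libraries only.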
